A study of Homo sapiens with 6 samples.

Results

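The proteasome genes were taken as every protein-coding gene of the count table whose symbol begins with PSMA, PSMB, PSMC, PSMD, PSME, PSMF or PSMG. The rule gave 49 of the 58735 genes in the table. Of these, 48 encode a subunit, an activator, an inhibitor or an assembly chaperone of the proteasome. PSMC3IP, a recombination protein named after its binding to PSMC3, met the rule by its symbol alone. The filter on low counts kept 47 of the 49. PSMA8, the alpha subunit of the testis, and PSMB11, the catalytic subunit of the thymus, had 0 counts in all 6 libraries. A count of 0 allows up to 3 counts in a library, or 0.159 to 0.167 CPM, counts scaled to the library's total.

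The proteasome is the protease that degrades most proteins marked with ubiquitin. Its barrel-shaped core is built from rings of alpha subunits, which form the gate, and rings of beta subunits, of which PSMB5, PSMB6 and PSMB7 cut peptide bonds. The regulatory particle binds the ubiquitin chain with its base, removes it with the lid and threads the protein into the core with a ring of ATPases. Under interferon, PSMB8, PSMB9 and PSMB10 take the places of the constitutive catalytic subunits in newly built cores, and this immunoproteasome makes many of the peptides shown on MHC class I molecules. Cancer cells depend on proteasome function, and PSMB5 is the main target of bortezomib.

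RNA was sequenced from MDA-MB-231 cells, a human breast cancer line of mesenchymal character. Of 6 libraries, 3 came from cells transfected with DNAJC12v, a vector that expresses DNAJC12, a J-domain co-chaperone of HSP70. The other 3 libraries came from cells of the same line transfected with the empty vector. The labels name no further agent and no time after transfection. They do not say whether the cells were a clone or a pool, or whether replicates were grown apart, so the spread behind the p-values may be technical.

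DNAJC12 had 522, 523 and 492 counts in the overexpression libraries, against 1, 0 and 0 counts with the empty vector. The libraries held 17967283 to 18887497 counts. All 7 marker genes of the line were measured well enough to be tested and 0 passed the test. CAV1, a caveolin, had 186, 100.2 and 149 FPKM with overexpression, against 90.9, 67.6 and 75 FPKM with the empty vector. KRT19, a keratin, had 128, 267 and 161 FPKM with overexpression, against 279, 353 and 313 FPKM with the empty vector. In neither did the groups overlap, and the adjusted p was 0.146 for CAV1 and 0.251 for KRT19. Nor did they overlap in AXL, which was higher with overexpression (adjusted p = 0.399). Among all genes tested, 20.1% had groups that did not overlap. After the correction for GC content described further on, 4 of the 7 passed on the higher side and 1 on the lower side. In that fit 10.6% of all genes passed on the higher side and 9.57% on the lower side. The part of these markers in the values of the proteasome genes was not tested. ESR1 and PGR, the steroid receptors that the line lacks, had at most 3 counts in any library. The other receptor looked up, ERBB2, was present. It had 1225, 1856 and 1480 counts with overexpression, against 1774, 2169 and 1927 with the empty vector (adjusted p = 0.645). Without overexpression replicate 2 it passed on the lower side (adjusted p = 0.0193), as did 10.4% of all genes. Of 8 markers of immune, endothelial and other cell types, 5 stayed under 10 counts in every library, with CD3E at 0 in all. The summed level of all 8 was 1.03 to 1.46 FPKM with overexpression and 3.15 to 3.58 FPKM with the empty vector, and 1 of them, the endothelial marker PECAM1, passed the test on the lower side, with 110, 70 and 73 counts in overexpression libraries, against 423, 272 and 319 counts with the empty vector (adjusted p = 0.0125). The part of PECAM1 was not tested either. Overexpression replicate 2 stood apart from replicates 1 and 3 on the first principal component of all tested genes, at 46.8, with the others at -64 and -29.6, while the empty vector libraries lay at -1.9, 37.6 and 11.

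No proteasome gene passed the test between the groups. Of the 47 tested, 0 had an adjusted p under 0.05 in edgeR's quasi-likelihood test with Benjamini-Hochberg adjustment over 14520 genes, where 1.25% of all genes passed, 0.585% on the higher and 0.661% on the lower side. The DESeq2 Wald test and limma on log2(FPKM + 1) also called 0 of them, with 3.89% and 1.24% of all genes called. PSMA2 was not in that limma fit, which has its own filter on FPKM. At an unadjusted p under 0.05 there was 1 proteasome gene, PSMA6, whereas 14.1% of all genes reached that level. The smallest adjusted p among the proteasome genes was 0.335.

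The estimated differences were small and leaned downward. Log2 fold changes, overexpression over empty vector, ran from -0.58 for PSMA6 to 0.62 for PSMB10, and 44 of the 47 lay within 0.5 of zero. The median was -0.13 for the proteasome genes, beside 0.05 for all genes tested. Below zero lay 30 of the 47, or 63.8%, and 45.1% of all genes tested. The standard errors ran from 0.18 to 0.37, with a median of 0.24. In data simulated from these libraries, the same test recovered 23% of genes changed 2-fold and 87% of genes changed 4-fold. The changed genes were drawn from all tested genes, and no shift tied to GC content was simulated. Smaller changes were not simulated, nor was recovery among the proteasome genes by themselves.

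In 7 of the 47 genes all overexpression libraries lay below all empty vector libraries in TMM-scaled CPM, the unit of all values by library for single members, as was so for 10.8% of all genes. These were PSMA5, PSMA6, PSMC1, PSMC3IP, PSMD4, PSMD11 and PSME2. In 0 genes did all overexpression libraries lie above, as was so for 9.26% of all genes. The 7 genes are 14.9% of those tested, a smaller share than the 20.1% of all genes whose groups did not overlap.

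**Figure D1:**
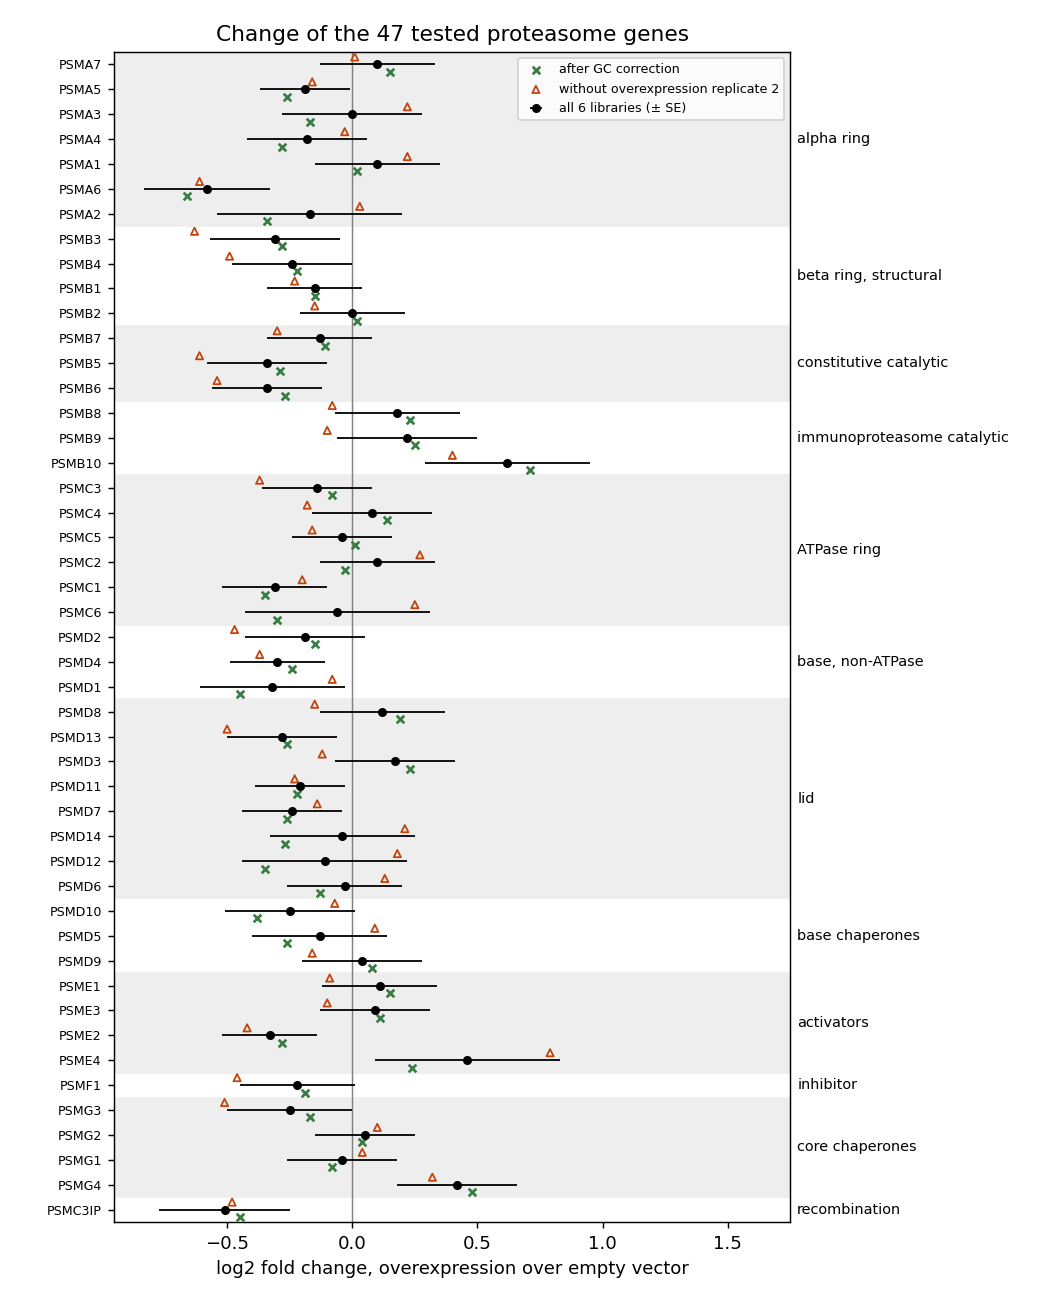
Log2 fold change (x axis, overexpression over empty vector) of the 47 tested proteasome genes, ordered by role; black points and bars are the estimate ± SE from all 6 libraries, green crosses the estimate after correction for GC content, and open triangles the estimate without overexpression replicate 2. Black points lie between -0.58 and 0.62, and for many genes the triangle and the cross lie on opposite sides of the black point.

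Transcripts of the 49 genes made up 0.744%, 0.807% and 0.766% of all counts in the overexpression libraries, against 0.855%, 0.889% and 0.858% with the empty vector. As a share of counts, all overexpression libraries lay below all empty vector libraries. After TMM scaling they summed to 6837, 9467 and 7556 CPM in the overexpression libraries, against 8416, 8937 and 8213 CPM with the empty vector. On that scale the groups overlapped, with the lowest and the highest sum both in overexpression libraries.

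Levels in FPKM differed far more between the genes than between the groups. FPKM are counts scaled for depth and for the length of all annotated exons of a gene. That length, 1179 bases for PSMB3 and 5336 for PSMA2, can include exons that the expressed transcripts lack. Mean FPKM over the 6 libraries was highest for PSMB3 at 246, PSMA7 at 240.5 and PSMB7 at 203. The median gene had 28.3 FPKM and the lowest tested, PSMA2, had 0.451 FPKM, although the subunits of the core are assembled in equal numbers. PSMA2 shares 97.1% of its coding bases with another gene on the same strand, as described further on, so its level is uncertain.

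**Figure D2:**
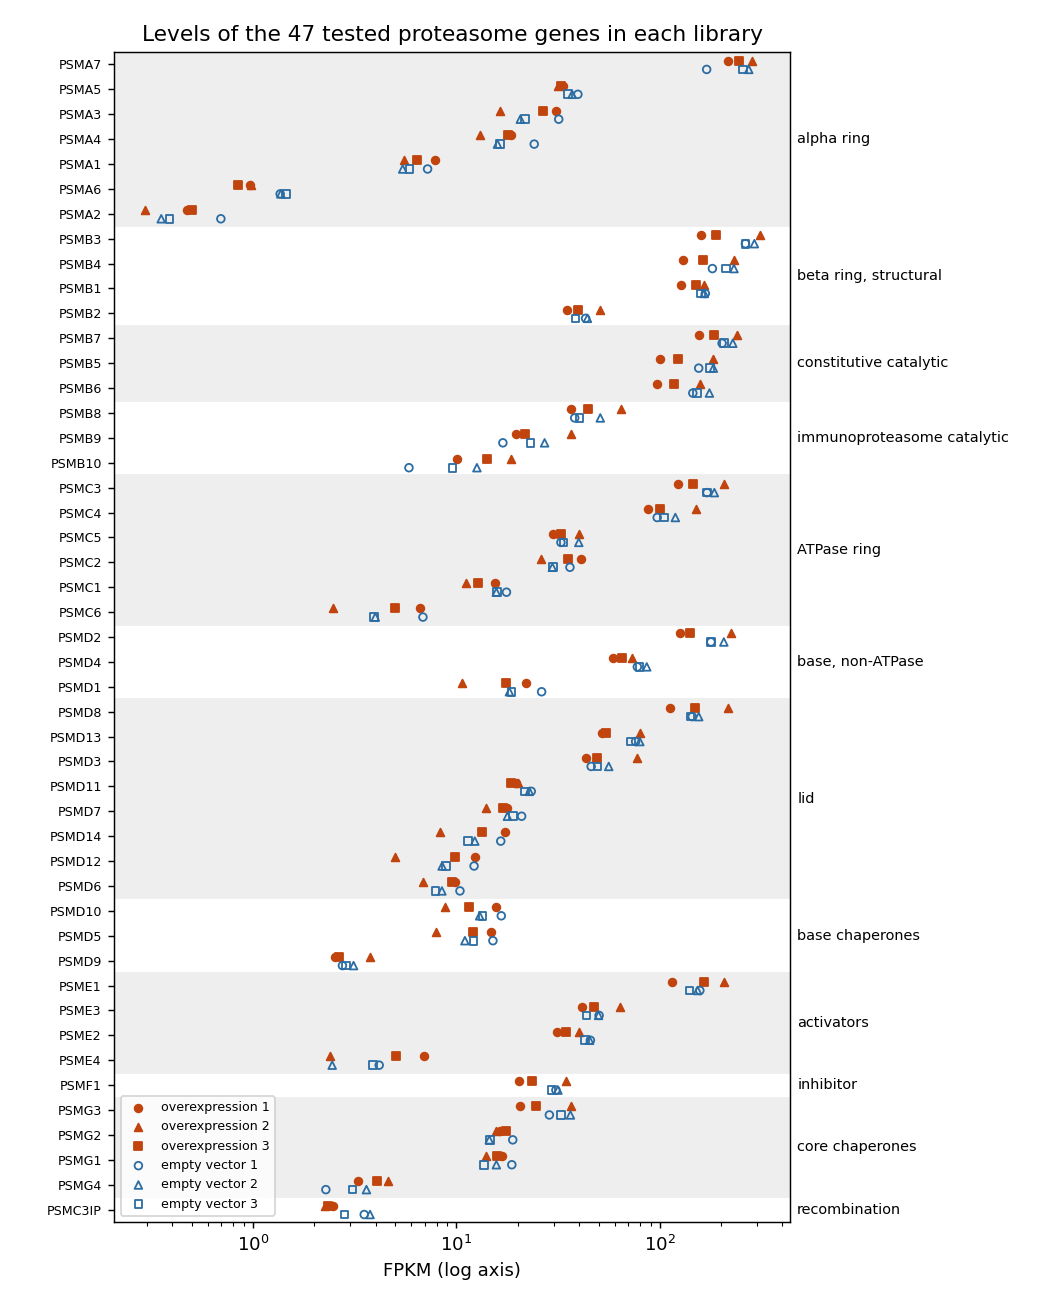
FPKM (x axis, log scale) of each tested proteasome gene in each library; filled orange symbols are overexpression libraries, open blue symbols empty vector libraries, and the symbol shape gives the replicate number. Levels run from 0.451 FPKM for PSMA2 to 246 FPKM for PSMB3 on average, and in most genes the orange and blue symbols overlap, with the orange triangle of replicate 2 at an end of its group.

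The alpha ring had 7 tested members, with log2 fold changes from -0.58 to 0.1. PSMA6, the gene with the smallest p, had 6.36, 6.39 and 5.59 CPM with DNAJC12 overexpression, against 8.96, 8.9 and 9.49 CPM with the empty vector. All overexpression libraries lay below all empty vector libraries. The log2 fold change was -0.58 ± 0.25 (SE, n = 3 each), with an unadjusted p of 0.0423 and an adjusted p of 0.335. After the GC correction described further on, the groups overlapped (adjusted p = 0.107). The gene rested on 101 to 178 counts a library, and its annotated pseudogene PSMA6P1 had 23, 32 and 53 counts with overexpression, against 82, 38 and 46 with the empty vector. How reads that match both were assigned is not given in the sources used here. PSMA6 also shares 70.4% of its coding bases with another gene on the same strand.

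PSMA7, the most abundant alpha subunit, had 386, 495 and 436 CPM in overexpression libraries, against 300.3, 479 and 449 CPM with the empty vector, and the groups overlapped. PSMA2, the least abundant, had 2.55, 1.58 and 2.72 CPM with overexpression, against 3.76, 1.89 and 2.08 CPM with the empty vector, also with overlap. The summed alpha ring was nearly level, at 843, 845 and 868 CPM with overexpression and 837, 896 and 867 CPM with the empty vector.

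The 4 structural beta subunits had log2 fold changes from -0.31 to 0. PSMB3 had 191, 365 and 226 CPM in overexpression libraries, against 314, 344 and 312 CPM with the empty vector. Replicates 1 and 3 of the overexpression group lay well below every empty vector library and replicate 2 above them all. PSMB2 had 173, 246 and 194 CPM with overexpression, against 211, 213 and 187 CPM with the empty vector, and replicate 2 was again the highest of all 6.

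The constitutive catalytic subunits all had lower estimates with DNAJC12 overexpression, and none passed the test. PSMB5, which cuts after hydrophobic residues, had 179, 324 and 221 CPM in overexpression libraries, against 277, 324 and 312 CPM with the empty vector. Its log2 fold change was -0.34 ± 0.24 (SE, n = 3 each, adjusted p = 0.588). An approximate 95% interval, by the normal distribution, ran from -0.81 to 0.14. With so few libraries such an interval is narrower than the test would give. Replicate 2 reached the highest empty vector value, and replicates 1 and 3 lay below the lowest.

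PSMB6, which cuts after acidic residues, had 143, 228 and 173 CPM with overexpression, against 213, 253 and 222 CPM with the empty vector, a log2 fold change of -0.34 ± 0.22 (adjusted p = 0.549). PSMB7, which cuts after basic residues, had 283, 430.2 and 336 CPM with overexpression, against 366, 409 and 371 CPM with the empty vector, a log2 fold change of -0.13 ± 0.21 (adjusted p = 0.842). In each the groups overlapped through overexpression replicate 2.

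The immunoproteasome subunits all had higher estimates, and again none passed. PSMB8, the counterpart of PSMB5, had 111, 194 and 135 CPM with overexpression, against 116, 153 and 121 CPM with the empty vector. Its log2 fold change was 0.18 ± 0.25 (SE, n = 3 each, adjusted p = 0.808). The approximate 95% interval, made in the same way, ran from -0.31 to 0.66. The groups overlapped, with replicate 1 of the overexpression group below every empty vector library.

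PSMB9, the counterpart of PSMB6, had 61.1, 112 and 67.7 CPM with overexpression, against 52.7, 83.3 and 71.4 CPM with the empty vector, a log2 fold change of 0.22 ± 0.28 (adjusted p = 0.788). PSMB10, the counterpart of PSMB7, had 19, 34.4 and 26.6 CPM with overexpression, against 10.9, 23.3 and 17.8 CPM with the empty vector. Its log2 fold change of 0.62 ± 0.33 was the highest of all proteasome genes (adjusted p = 0.449), and the groups overlapped because empty vector replicate 2 exceeded overexpression replicate 1. Without overexpression replicate 2 the log2 fold changes of PSMB8 and PSMB9 turned to -0.08 and -0.10, while that of PSMB10 was 0.40.

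Set against its constitutive counterpart within each library, every immunoproteasome subunit was higher in all overexpression libraries than in any empty vector library. The ratio of FPKM values compares the genes within 1 library, so the depth of the library drops out of it. Its level rests on the annotated exon lengths, which are the same in every library. The ratio also rises when the constitutive subunit falls. The log2 fold changes were 0.18 for PSMB8 and -0.34 for PSMB5, 0.22 and -0.34 for PSMB9 and PSMB6, and 0.62 and -0.13 for PSMB10 and PSMB7. Without overexpression replicate 2 they were -0.08 and -0.61, -0.10 and -0.54, and 0.40 and -0.30. PSMB8 stood at 36.4%, 35.3% and 36.0% of PSMB5 in the overexpression libraries, against 24.6%, 27.8% and 22.8% with the empty vector. The means were 35.9% ± 0.591 and 25.1% ± 2.5 (SD, n = 3 each), a 1.44-fold difference. The groups did not overlap, and overexpression replicate 2, which lay apart for each gene by itself, lay beside the other overexpression libraries in the ratio.

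PSMB9 stood at 20.2%, 23.2% and 18.5% of PSMB6 with overexpression, against 11.7%, 15.5% and 15.2% with the empty vector, a 1.47-fold difference in the mean log ratio. PSMB10 stood at 6.48%, 7.71% and 7.64% of PSMB7, against 2.88%, 5.5% and 4.62%, a 1.73-fold difference. In neither did the groups overlap. The summed FPKM of PSMB8, PSMB9 and PSMB10 made up 15.8%, 17.1% and 15.9% of the FPKM of all 6 catalytic subunits with overexpression, against 10.8%, 13.4% and 12% with the empty vector.

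Of the 9 ratios of an immunoproteasome to a constitutive catalytic subunit, 8 were higher in all overexpression libraries and 0 were lower in all. These ratios share 6 genes and the same libraries. Among all 1081 ratios of tested proteasome genes, 20.3% had groups that did not overlap in either direction, and among all pairs of tested genes 24.6% did. No test was run on the ratios. With 3 libraries against 3, an exact two-sided permutation test could not give a p under 0.1.

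**Figure D3:**
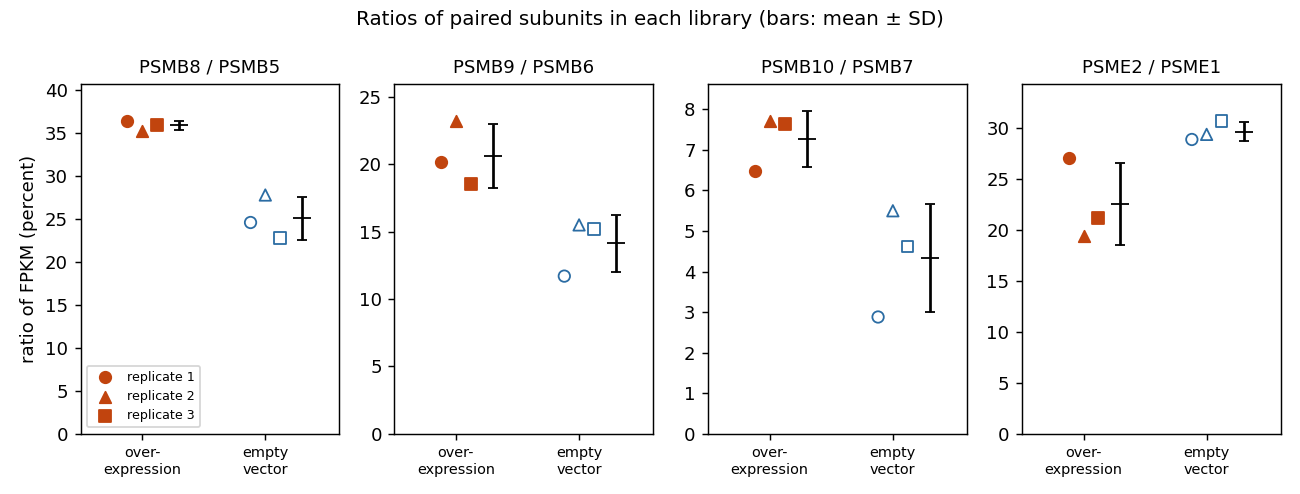
Ratio of the FPKM of paired subunits (y axis, percent) in each library; filled orange symbols are overexpression libraries, open blue symbols empty vector libraries, the shape gives the replicate number, and black bars are the mean ± SD. PSMB8 to PSMB5 lies at 35.3% to 36.4% with overexpression against 22.8% to 27.8% with the empty vector, and the groups do not overlap in any panel.

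The difference in GC content between paired genes was small for PSMB8 and PSMB5, at 53.7% and 52.9%, and larger for PSMB10 and PSMB7, at 62.0% and 48.7%. After correction for GC content in each library the groups stayed apart in all 3 ratios. The log2 differences were 0.53 for PSMB8 to PSMB5, 0.5 for PSMB9 to PSMB6 and 0.87 for PSMB10 to PSMB7. Without the correction they were 0.52, 0.55 and 0.79. The lowest overexpression and highest empty vector corrected log2 ratios were -0.78 and -1.1, -1.43 and -1.5, and -4.15 and -4.37. The share of all corrected ratios whose groups do not overlap was not computed. For single genes that share was 38.0% of all genes with the correction and 20.1% without. Leaving out each library in turn, without the correction, gave log2 differences of 0.46 to 0.6, 0.42 to 0.63 and 0.53 to 0.99.

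PSMB8 and PSMB9 lie in the MHC class II region of chromosome 6, and their annotated spans overlap. PSMB8 spans chr6:32840717-32844703 on the minus strand and PSMB9 chr6:32844136-32859585 on the plus strand (GRCh38). An antisense RNA, PSMB8-AS1, shares 20.6% of the exon bases of PSMB8. It had 118, 137 and 118 counts with overexpression, against 67, 87 and 73 counts with the empty vector, a log2 fold change of 0.75 ± 0.29 with an adjusted p of 0.279. PSMB8 itself had 2211, 3066 and 2592 counts with overexpression, against 2155, 2747 and 2272 with the empty vector. The strand setting of the counting is not given in the sources used here, so reads over the shared bases cannot be told apart.

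The promoters of the immunoproteasome subunits and of the interferon-inducible activator PSME1 and PSME2 are shown because these genes are known to answer to interferon, with PSMB5 as a constitutive counterpart. Each sequence is RefSeq's on GRCh38.p14, on the strand of the gene, from 250 bases before to 50 bases after the start site. Capitals mark matches to the interferon-stimulated response element, searched as GAAA, any 2 bases and GAAA again, or to the antioxidant response element, searched as TGACNNNGC, on either strand.
PSMB8: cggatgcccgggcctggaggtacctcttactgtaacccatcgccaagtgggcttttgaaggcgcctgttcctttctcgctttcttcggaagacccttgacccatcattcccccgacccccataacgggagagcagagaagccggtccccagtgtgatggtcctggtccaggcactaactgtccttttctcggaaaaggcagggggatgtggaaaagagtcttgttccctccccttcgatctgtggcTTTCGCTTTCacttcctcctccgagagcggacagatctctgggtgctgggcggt
PSMB9: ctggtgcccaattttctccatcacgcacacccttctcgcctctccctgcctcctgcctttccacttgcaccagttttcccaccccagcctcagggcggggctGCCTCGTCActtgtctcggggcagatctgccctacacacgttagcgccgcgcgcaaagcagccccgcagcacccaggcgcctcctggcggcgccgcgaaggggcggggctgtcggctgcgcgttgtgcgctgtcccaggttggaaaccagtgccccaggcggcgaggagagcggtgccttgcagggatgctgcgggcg
PSMB10: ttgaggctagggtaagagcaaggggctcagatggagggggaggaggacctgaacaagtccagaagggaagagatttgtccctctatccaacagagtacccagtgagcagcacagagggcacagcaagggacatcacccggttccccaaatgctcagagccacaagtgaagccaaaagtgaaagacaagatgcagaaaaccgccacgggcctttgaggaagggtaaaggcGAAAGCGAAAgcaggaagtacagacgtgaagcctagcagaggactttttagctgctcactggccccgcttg
PSME1: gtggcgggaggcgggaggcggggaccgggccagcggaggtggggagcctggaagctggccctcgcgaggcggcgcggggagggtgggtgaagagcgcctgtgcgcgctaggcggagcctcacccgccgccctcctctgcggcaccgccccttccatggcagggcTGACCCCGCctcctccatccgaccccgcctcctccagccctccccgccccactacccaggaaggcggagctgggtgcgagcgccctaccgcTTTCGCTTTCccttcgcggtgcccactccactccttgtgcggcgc
PSME2: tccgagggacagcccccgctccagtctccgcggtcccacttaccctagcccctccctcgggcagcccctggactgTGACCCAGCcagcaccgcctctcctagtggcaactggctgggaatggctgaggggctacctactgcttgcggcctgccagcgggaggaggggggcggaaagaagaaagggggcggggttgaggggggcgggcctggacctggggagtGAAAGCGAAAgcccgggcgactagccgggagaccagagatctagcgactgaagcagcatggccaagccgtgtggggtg
PSMB5: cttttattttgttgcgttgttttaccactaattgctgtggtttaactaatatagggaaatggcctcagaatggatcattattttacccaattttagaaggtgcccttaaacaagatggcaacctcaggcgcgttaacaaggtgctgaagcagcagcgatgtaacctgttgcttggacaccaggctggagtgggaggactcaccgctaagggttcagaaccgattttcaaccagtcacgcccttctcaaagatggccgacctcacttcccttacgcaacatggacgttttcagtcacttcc

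The windows are chr6:32843998-32844297 on the minus strand for PSMB8, chr6:32853942-32854241 on the plus strand for PSMB9, chr16:67936801-67937100 on the minus strand for PSMB10, chr14:24135944-24136243 on the plus strand for PSME1, chr14:24146561-24146860 on the minus strand for PSME2, and chr14:23035171-23035470 on the minus strand for PSMB5. PSMB8 has 2 windows, and the one that holds a match is shown. PSMB5 also has 2, and neither holds a match to the interferon-stimulated or the antioxidant response element. Matches to other motifs, given further on, are not marked.

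The interferon element begins 4 bases before the start site of PSMB8, 21 bases before that of PSMB10 and 28 bases before that of PSME2. It was found in 7 of the 53 windows of 43 proteasome genes, or 13.2%, and in 3.57% of all 35116 windows. The 7 genes are PSMA4, PSMB4, PSMB8, PSMB10, PSME1, PSME2 and PSMG4, and their log2 fold changes ran from -0.33 for PSME2 to 0.62 for PSMB10. PSMB9 holds none in this window.

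The antioxidant element was in 28.3% of the proteasome windows and 13.3% of all. A CCAAT box, searched as CCAAT, was in 41.5% and 34.6%, and the interferon-gamma-activated site, searched as TTCNNNGAA, was in 15.1% and 7.66%. Among the genes shown, PSMB8 had a match to that site 65 bases before the start site. PSMB5, the constitutive counterpart, had matches 158 and 15 bases before the start site of its window not shown. PSMB9, PSMB10, PSME1 and PSME2 had none. No match of 1 motif overlapped a match of another. The table holds no entry for PSMA7, PSMB1, PSMB6, PSMB7, PSMD4 and PSMG3.

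The ATPase ring of the regulatory particle had log2 fold changes from -0.31 to 0.1 over its 6 members, with a median of -0.05. PSMC3, the most abundant ATPase, had 284, 469.6 and 337 CPM with overexpression, against 392, 421 and 388 CPM with the empty vector. PSMC6, the least abundant, had 50.1, 18.6 and 37.8 CPM with overexpression, against 51.8, 29.9 and 29.5 CPM with the empty vector. In both, overexpression replicate 2 lay outside the range of the other 5 libraries, on the high side in PSMC3 and on the low side in PSMC6.

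PSMC1 was the only ATPase whose groups did not overlap, with 96.6, 68.6 and 79.9 CPM in overexpression libraries, against 109, 96.7 and 98.1 CPM with the empty vector. Its log2 fold change was -0.31 ± 0.21 (SE, n = 3 each, adjusted p = 0.546). It was singled out after its values were seen. NRDE2, on the opposite strand, shares 75.8% of its exon bases and had 257, 166 and 247 counts with overexpression, against 225, 236 and 241 with the empty vector.

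The non-ATPase subunits of the base had 3 members, all with estimates below zero, from -0.32 to -0.19. PSMD2, a scaffold that docks ubiquitin receptors and shuttle proteins, had 699.8, 1227 and 781 CPM with overexpression, against 981, 1126 and 976 CPM with the empty vector. PSMD1, the other scaffold, had 116, 55.5 and 92.3 CPM with overexpression, against 138, 94.3 and 96.8 CPM with the empty vector. Overexpression replicates 1 and 3 lay below the empty vector libraries in PSMD2 but within or near their range in PSMD1, and replicate 2 was the highest library in PSMD2 and the lowest in PSMD1.

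PSMD4, a ubiquitin receptor, had 181, 220.1 and 199.7 CPM with overexpression, against 237, 261 and 242 CPM with the empty vector, and the groups did not overlap. The log2 fold change of PSMD4 was -0.30 ± 0.19 (adjusted p = 0.523). It was named after its values were seen.

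The lid had 8 members, with log2 fold changes from -0.28 to 0.17 and 6 of them below zero. PSMD8, the most abundant, had 353, 672 and 471 CPM with overexpression, against 452, 481 and 439.5 CPM with the empty vector. PSMD6 had the lowest FPKM of the lid, though not the lowest CPM. It had 91.2, 62.5 and 88.1 CPM with overexpression, against 96.4, 77.5 and 72.4 CPM with the empty vector. Both overlapped, with replicate 2 highest of the overexpression group in PSMD8 and lowest in PSMD6. PSMD14, the deubiquitinase that removes the ubiquitin chain, had a log2 fold change of -0.04 ± 0.29 (adjusted p = 0.972).

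The activators had the widest range of estimates of any role, from -0.33 to 0.46. PSME4, a nuclear activator linked to sperm development in mice, had 72.2, 24.5 and 52.4 CPM with overexpression, against 43.2, 25.1 and 40 CPM with the empty vector, and the groups overlapped through replicate 2. The log2 fold change of PSME4 was 0.46 ± 0.37 (adjusted p = 0.637). Without overexpression replicate 2 it was 0.79, with an adjusted p of 0.0276.

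PSME1 and PSME2 form the ring-shaped activator that interferon induces along with the immunoproteasome. PSME1 had 209, 367 and 297 CPM with overexpression, against 284, 273 and 249.8 CPM with the empty vector, a log2 fold change of 0.11 ± 0.23 (adjusted p = 0.879). PSME2 had 114, 143 and 126 CPM with overexpression, against 165, 162 and 154 CPM with the empty vector, and its groups did not overlap, with a log2 fold change of -0.33 ± 0.19 (adjusted p = 0.491).

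PSME2 stood at 27.1%, 19.4% and 21.2% of PSME1 in FPKM with overexpression, against 28.9%, 29.4% and 30.7% with the empty vector, a ratio 0.753 times as high. The groups did not overlap, with or without the GC correction, which gave a log2 difference of -0.42 beside -0.41. This ratio was formed after the values were seen, and carries no test.

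PSMF1, an inhibitor of the core, had 109.9, 183 and 126 CPM with overexpression, against 165, 167 and 156 CPM with the empty vector, a log2 fold change of -0.22 ± 0.23 (adjusted p = 0.724). Overexpression replicate 2 lay above the empty vector libraries and the other replicates below them.

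The chaperones that assemble the core gave mixed estimates, from -0.25 to 0.42. PSMG3 had 40.9, 71.6 and 49.1 CPM with overexpression, against 56.8, 71.3 and 64.5 CPM with the empty vector. PSMG4, its partner in a heterodimer, had 34.8, 48.1 and 43.2 CPM with overexpression, against 24, 37.7 and 32.2 CPM with the empty vector, a log2 fold change of 0.42 ± 0.24 (adjusted p = 0.482). The groups overlapped in both genes. PSMG1 and PSMG2, which form the other heterodimer, had log2 fold changes of -0.04 and 0.05.

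The chaperones of the base had estimates from -0.25 to 0.04. PSMD10, also known as the oncoprotein gankyrin, had 39, 21.6 and 28.8 CPM with overexpression, against 41.3, 32 and 33 CPM with the empty vector. PSMD9 had 22.5, 33.1 and 23.6 CPM with overexpression, against 24.4, 27.4 and 25.3 CPM with the empty vector. Both overlapped. PSMC3IP, the recombination protein, had 6.41, 5.82 and 6.11 CPM with overexpression, against 9.18, 9.68 and 7.3 CPM with the empty vector, with no overlap and a log2 fold change of -0.51 ± 0.26 (adjusted p = 0.417).

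Overexpression replicate 2 lay at an end of its group in every tested proteasome gene. It was the highest of the overexpression libraries in 28 of the 47 genes, the lowest in 19 and the middle one in 0. Its log2 difference from the mean of replicates 1 and 3 ran from -1.33 for PSME4 to 0.82 for PSMB3. In 42 genes the range of the overexpression libraries was wider than the difference between the groups.

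The deviation of replicate 2 followed the GC content of the transcripts, which ran from 36.9% to 62.0%. Across the 47 genes, which share the same libraries and are no independent replicates, its Pearson correlation with GC content was 0.84. Empty vector replicate 2 differed from its group along the same axis, with a correlation of 0.82. The log2 fold change between the groups had a correlation of 0.16 with GC content.

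**Figure D4:**
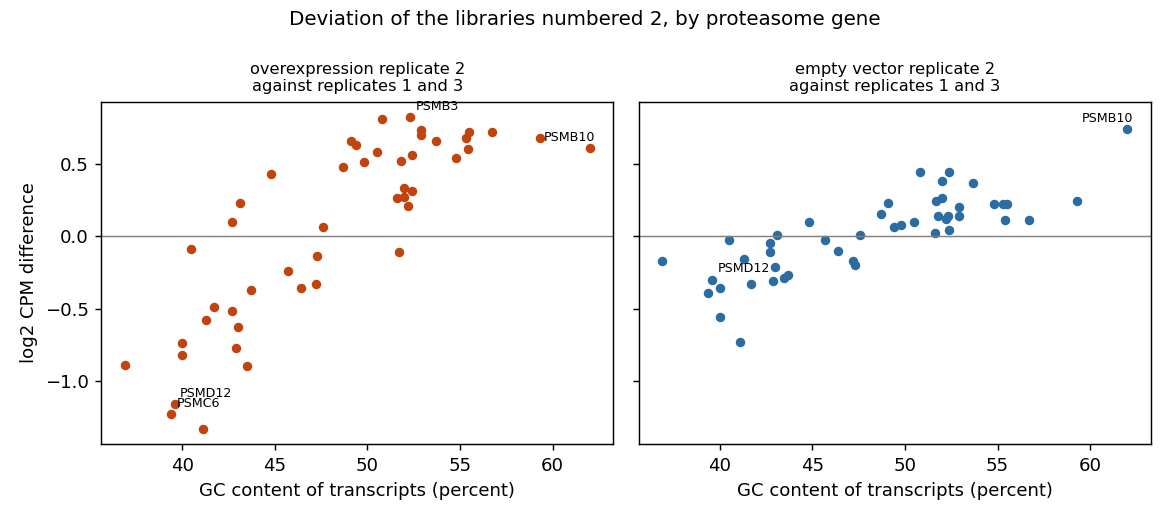
Log2 CPM of the library numbered 2 minus the mean of replicates 1 and 3 of its group (y axis) against the GC content of the transcripts (x axis, percent) for 47 proteasome genes; the left panel shows the overexpression group and the right panel the empty vector group. Most genes rich in GC lie above zero and most genes poor in GC below it in both panels, with a wider range on the left, from -1.33 to 0.82.

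Results by gene moved with that library. Without overexpression replicate 2, PSME4 passed the threshold on the higher side and PSMB3, PSMB4, PSMB5, PSMB6, PSMD2, PSMD13, PSME2, PSMF1 and PSMG3 on the lower side. These are 1 and 9 genes, in a fit where 22.5% of all genes passed, 12.1% on the higher and 10.4% on the lower side. After correction for GC content, PSMB10 and PSMG4 passed on the higher side and PSMC1, PSMD1, PSMD10 and PSME2 on the lower side. In that fit 20.2% of all genes passed, 10.6% on the higher and 9.57% on the lower side. PSME2 was the only gene in both sets. Without both libraries numbered 2, PSME4 passed on the higher side and PSMB3, PSMB5 and PSMD13 on the lower side, where 18.7% of all genes passed, 10.3% higher and 8.41% lower. The groups did not overlap in 3 genes on the higher side (PSMB10, PSMD3 and PSMG4) and in 11 on the lower side after the GC correction. These are 29.8% of the 47 genes, beside 38.0% of all genes, 19.7% higher and 18.3% lower. Whether the GC trend accounts for the calls was not tested.

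There were 5 genes that share most of their coding sequence with another annotated gene on the same strand. The shared portion of coding bases was 97.1% in PSMA2, 88.6% in PSMA1, 70.4% in PSMA6, 58.7% in PSMD9 and 58.3% in PSMB10, and at most 14.2% in any other tested gene. The partners are annotated as protein-coding genes that run through these loci, and no partner had more than 16 counts in a library.

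The 5 genes had a median of 2.94 FPKM and at most 11.8 FPKM. The other 42 tested genes had a median of 33.9 FPKM and at least 2.86 FPKM. The limit of 50% that sets the 5 apart was chosen after the values were seen, and how reads over shared exons were counted was not tested. Levels of these genes, and the ratio of PSMB10 to PSMB7, are uncertain to that extent.

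**Figure D5:**
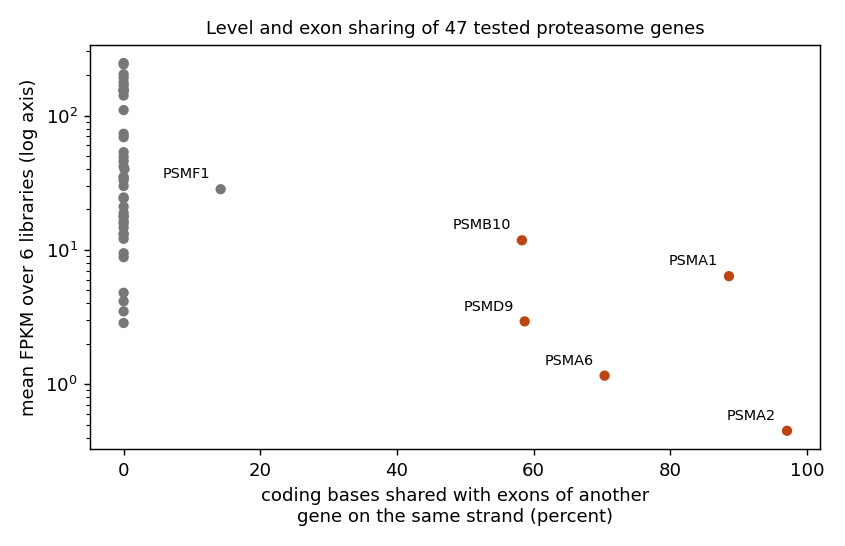
Mean FPKM over the 6 libraries (y axis, log scale) against the percent of coding bases shared with exons of another gene on the same strand (x axis) for the 47 tested proteasome genes; orange points share over 50%. The orange points lie between 0.451 and 11.8 FPKM and the grey points between 2.86 and 246 FPKM.

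Pseudogenes of the family took few counts. Of 32 in the table, 8 had a count in any library and 2 exceeded 20 counts, PSMC1P1 with 50 to 63 and PSMA6P1 as given above.

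Genes that work beside the proteasome were set against it as lists. Among 12 proteasome subunits and partners named otherwise, such as ADRM1 and POMP, 0 passed the test, with a median log2 fold change of 0.17. The smallest p-values belonged to ZFAND5, which activates the proteasome, at 0.54 ± 0.28 (adjusted p = 0.433) and to PAAF1, which restrains assembly with the regulatory particle, at -0.41 ± 0.23 (adjusted p = 0.466).

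Among 10 genes that control proteasome gene transcription, 0 passed, 2 had an unadjusted p under 0.05 and both were higher, and the median log2 fold change was 0.15. Of all genes tested, 7.25% had an unadjusted p under 0.05 on the higher side. NFE2L1, which raises proteasome gene transcription when the proteasome is inhibited, had 106, 140 and 109.8 FPKM with overexpression, against 73.3, 86.6 and 80.6 FPKM with the empty vector. The groups did not overlap, and the log2 fold change was 0.57 ± 0.20 (unadjusted p = 0.0156, adjusted p = 0.219). NFE2L2, the main regulator of the antioxidant response, had a log2 fold change of 0.84 ± 0.37 (adjusted p = 0.347), and its groups overlapped.

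Among 12 shuttle factors and segregase genes, 0 passed and 2 had an unadjusted p under 0.05, both higher, with a median log2 fold change of 0.1. SQSTM1, a receptor that carries ubiquitinated cargo to autophagy, had 124, 202 and 156 FPKM with overexpression, against 87.6, 99.9 and 100.1 FPKM with the empty vector. Again the groups did not overlap, with a log2 fold change of 0.75 ± 0.22 (unadjusted p = 0.00703, adjusted p = 0.155). UBQLN2, which ferries ubiquitinated proteins to the proteasome, had a log2 fold change of 0.65 ± 0.25 (adjusted p = 0.28).

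Ubiquitin and its activation gave 0 of 10 and a median of 0.17, with the smallest p-values in UBE2N, a ubiquitin-conjugating enzyme, at -0.32 ± 0.21 (adjusted p = 0.544) and RPS27A, a ubiquitin fusion gene, at 0.24 ± 0.18 (adjusted p = 0.613). Antigen processing genes beside the immunoproteasome gave 0 of 9 and a median of 0.29, with 2 at an unadjusted p under 0.05, both higher. IRF1, a transcription factor that induces the immunoproteasome genes, had 8.56, 13.5 and 9.55 FPKM with overexpression, against 5.89, 7.59 and 7.26 FPKM with the empty vector, and the groups did not overlap. Its log2 fold change was 0.61 ± 0.23 (adjusted p = 0.272), and that of TAPBP, the tapasin gene of peptide loading, was 0.58 ± 0.24 (adjusted p = 0.331). In TAPBP the groups overlapped.

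After correction for GC content, 8 of the 53 genes in the 5 lists passed the threshold, all on the higher side, where 10.6% of all genes passed. They were ZFAND5, ECPAS, NFE2L1, NFE2L2, SQSTM1, UBQLN2, IRF1 and TAPBP, with adjusted p-values from 0.000289 for SQSTM1 to 0.0413 for ECPAS. Without overexpression replicate 2, 8 passed on the higher side and 5 on the lower side, in the fit where 12.1% and 10.4% of all genes did. The higher ones were ZFAND5, ECPAS, NFE2L1, NFE2L2, DDI2, SQSTM1, UBQLN2 and ERAP1, and the lower ones ADRM1, PAAF1, ZFAND2A, NPLOC4 and UFD1. IRF1 and TAPBP did not pass in that fit, with adjusted p-values of 0.0842 and 0.144.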

How the data were processed

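The authors deposited raw read counts per gene and FPKM for 6 libraries of MDA-MB-231 cells, per the file headers. The submitters' processing notes list HISAT2 2.0.5 and hg19, but the coordinates of all 58735 genes equal GENCODE 29 on GRCh38, which is the build used here. The sources used here do not give the counter, its strand setting or the FPKM tool. FPKM equals the count over exon length and a depth of 0.854 to 1.1 times the library's total count.

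Counts were tested in edgeR 4.0.16 (R 4.3.3) with the quasi-likelihood test, TMM and filterByExpr (minimum count 10, minimum total 15), 3 overexpression against 3 empty vector libraries, with Benjamini-Hochberg adjustment over 14520 genes and a threshold of 0.05. Each SE is the absolute log2 fold change over the square root of the F statistic of that test. Untested genes held 0.129% of counts. A library gives up to 3 counts as the limit a count of 0 allows, for counting error only. Alternatives used DESeq2 1.42.0 (size factors, Wald test), no count filter or 1 CPM in 3 libraries, limma 3.58.1 on log2 of FPKM plus 1 or 0.1 (filter 0.5 FPKM in 3 libraries, or none), the replicate number as a block, a loess correction (span 0.3) of log2 CPM (prior count 2) on GC content from GENCODE 29 transcripts, and libraries left out. The GC-corrected ratios and the ratio of PSME2 to PSME1 were added after the data were seen. The code was tested on simulated data, where 5.98% of calls were false.

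Genes and lists were chosen with earlier results of these data known. Values in every library are given for genes with p under 0.05, the catalytic subunits, and the highest and lowest gene by mean FPKM of each role with 3 or more members. From each of the 5 pathway lists the 2 genes with the smallest p are named, and cell type markers are given as counts and ranges. Other genes were named after their values were seen. Tables and figures were made in Python 3.11.15 with pandas 2.3.3 and matplotlib 3.10.9.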

Additional observations from a re-analysis of the deposited data

How the results depend on the processing

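The count of 0 proteasome genes called held under DESeq2 size factors, the DESeq2 Wald test, both count filters, all 3 limma fits and leaving out any library other than overexpression replicate 2. With GC correction 2 were called higher and 4 lower. Without both libraries numbered 2, 1 was called higher and 3 lower. Over leaving out each library, calls ranged from 0 to 1 higher and 0 to 9 lower, and the median log2 fold change of proteasome genes from -0.16 to -0.0068, the last without empty vector replicate 1. All 3 immunoproteasome ratios kept their direction under the GC correction. Leaving out libraries could not turn a ratio whose groups do not overlap, so those runs do not test the direction. Nor does the ratio of CPM, which gives the same log2 difference as the ratio of FPKM.

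Over all genes, 85 called higher and 96 lower became 289 and 276 with the DESeq2 Wald test, 366 and 322 without a filter, 1546 and 1389 with GC correction, 8 and 4 with unfiltered limma, and 1514 and 1240 without both libraries numbered 2. Leaving out each library gave 15 to 1806 higher and 6 to 1560 lower.

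With the replicate number as a block, 1 proteasome gene was called higher, PSMB10, and 1011 and 926 of all genes. GC correction with the block gave 2 higher and 4 lower proteasome genes, with PSMA6 among the lower ones (-0.68, adjusted p = 0.0313) and PSME2 not called (adjusted p = 0.0513), and 1730 and 1567 of all genes. The numbers are not shown to pair the libraries: the deviations from the group means of same-numbered libraries had correlations of 0.4477, 0.5847 and 0.0335, and overexpression replicate 3 correlated best with empty vector replicate 1, at 0.2245.

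Signs of small estimates turned. PSMB2, at 0 in the report, was -0.0004 with DESeq2 size factors, -0.00042 with the Wald test, -0.03 without a filter, -0.002 with the 1 CPM filter, -0.01 with the block, -0.07 with block and GC correction, -0.02 in all 3 limma fits and -0.13 without both libraries numbered 2. Without those libraries, PSMC6 was at 0.11, PSMD6 at 0.08, PSMD8 and PSMD9 at -0.12 and PSME1 at -0.09. Over leaving out each library, the ranges were -0.36 to 0.20 for PSMA2, -0.09 to 0.20 for PSMA7, -0.15 to 0.10 for PSMB2, -0.08 to 0.33 for PSMB8, -0.10 to 0.37 for PSMB9, -0.37 to 0.00037 for PSMC3, -0.40 to 0.25 for PSMC6, -0.13 to 0.13 for PSMD6, -0.15 to 0.31 for PSMD8, -0.16 to 0.13 for PSMD9 and -0.09 to 0.29 for PSME1. Leaving out overexpression replicate 2 gave the end that crossed zero in PSMB2, PSMB8, PSMB9, PSMD6, PSMD8, PSMD9 and PSME1, overexpression replicate 1 in PSMC3, and empty vector replicate 1 in PSMA2 and PSMA7. The causes were not tested.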
